A study of Mus musculus with 10 samples.

Results

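Adipokines are proteins that fat tissue releases into the blood, and 9 of their genes are described here: Lep, Adipoq, Retn, Cfd, Rbp4, Nampt, Apln, Agt and Rarres2. A gene was taken as measured where the array annotation pairs a probe set (the group of short probes that reads 1 transcript) with it and with no other gene, and its brightest probe set, by the mean of all 10 arrays, represented it. By that rule 7 of the 9 genes were measured, out of 17097 genes and 45141 probe sets on the array. Cfd, the gene of adipsin, a complement protease of adipocytes, and Nampt, which makes a precursor of NAD, have no probe set paired with them in the annotation used and were not analysed here.

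The study compared 3 ASC-/- mice, 3 Casp1-/- mice and 4 wild-type (WT) mice, with 1 array per mouse. ASC, encoded by Pycard, is the adaptor of the inflammasome, and caspase-1, encoded by Casp1, is its protease. Per the labels each allele is null in every cell, on a C57/Bl6 background, and the ASC-/- animals are also called ASC1 null there. All mice were males, 8 to 12 weeks old at the start, and all ate a diet with 45% of its energy from fat for 16 weeks, so there is no lean group to set the levels against. The tissue is whole epididymal white fat, in which adipocytes, macrophages and vessels are read together, so fewer cells of a type and less RNA per cell cannot be told apart.

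Most adipokines are made by mature adipocytes. Leptin is released roughly in proportion to fat mass and curbs feeding, whereas circulating adiponectin is lower in obesity and improves the response to insulin. Resistin, retinol-binding protein 4, angiotensinogen, apelin and chemerin act on insulin response, blood pressure, vessels or immune cells, and inflammation of fat is known to alter the production of several of them.

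Signals are log2 values, in which a difference of 1 is a 2-fold change. Pycard was 3.40 ± 0.27 (SD, n = 3) in ASC-/- fat and 9.82 ± 0.62 (SD, n = 4) in WT fat, and Casp1 was 4.85 ± 0.14 (SD, n = 3) in Casp1-/- fat and 9.32 ± 0.55 (SD, n = 4) in WT fat, as the labels say. Probe sets meant to bind nothing had array medians of 2.91 to 3.15 and single values of up to 5.01. The brightest probe set on an array was at 13.82 to 14.01. By 24 control probe sets for transcripts added before labelling (spike-ins), there were 2 sets of arrays: the Casp1-/- arrays (7.51 to 8.07) and WT replicate 1 (7.80) were high, and the ASC-/- arrays (6.21 to 6.30) and the other WT arrays (5.76 to 6.50) were low. This division follows the Casp1-/- genotype except for WT replicate 1. The adipokine differences between Casp1-/- and WT are therefore given below also within the high set. Adipokine genes, and genes of related lists, that passed in Casp1-/- minus WT are given also with the set as a block in the fit. In ASC-/- minus Casp1-/- this is done for only some of the genes named. Either way a difference of Casp1-/- from WT rests on WT replicate 1 as the only WT array, so both give the same value. A call lost with the block can therefore reflect a larger standard error as well as a smaller difference.

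In Casp1-/- fat 2 of the 7 measured genes rose by the test (limma, adjusted p under 0.05) and 0 fell, where 4.31% of all genes rose. Agt, the precursor of angiotensin, rose 5.01-fold in Casp1-/- fat and Apln, the gene of the vessel-active peptide apelin, rose 1.62-fold. Rbp4 and Retn were 2.31-fold and 2.20-fold higher and missed the threshold, and Lep, Adipoq and Rarres2 differed by 1.24-fold or less. In ASC-/- fat 0 of the 7 genes passed the test by limma, as against 0.0351% of all genes. An unadjusted p under 0.05 was found for 0 of the 7 and for 342 of the 17097 genes.

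**Figure D1:**
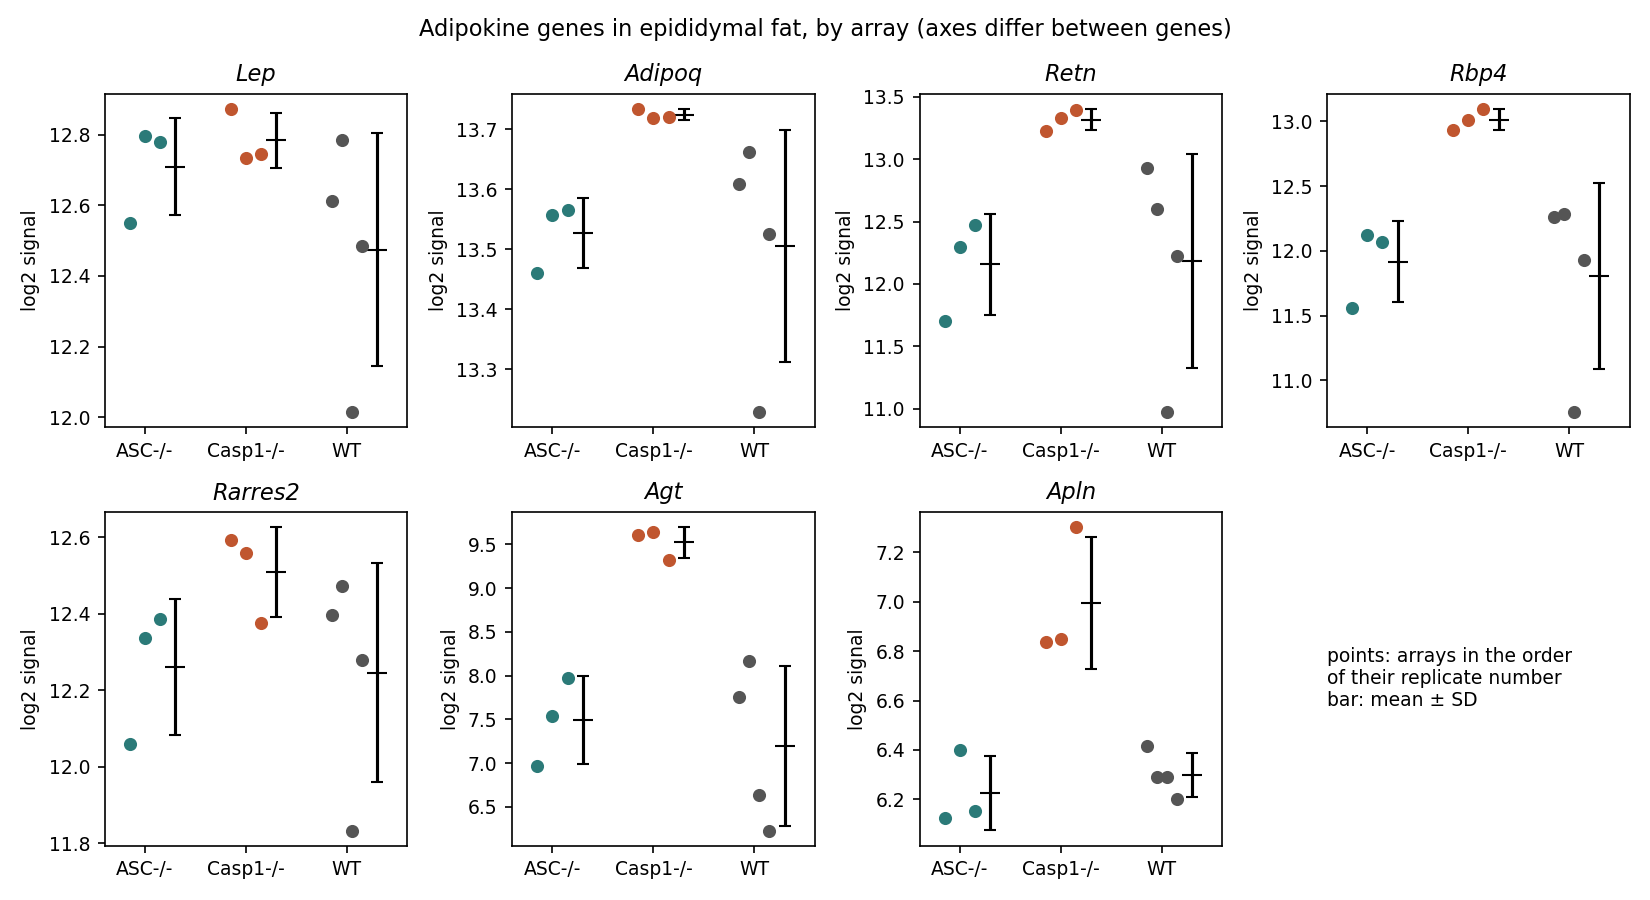
Log2 signal (vertical axis, its range differing between panels) of the 7 measured adipokine genes on each array, with ASC-/-, Casp1-/- and WT from left to right; points are arrays and the bar beside them is mean ± SD (n = 3, 3 and 4). The Casp1-/- arrays of Agt lie between 9.32 and 9.64, above all other arrays, and WT replicate 3 is the lowest array of 5 genes.

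Agt had the largest difference of the 7 genes in Casp1-/- minus WT. Angiotensinogen is cut by renin and then by angiotensin-converting enzyme to the peptide that raises blood pressure, and adipocytes are a source of it outside the liver. The signal of Agt was 9.60, 9.64 and 9.32 on the Casp1-/- arrays, against 7.75, 8.17, 6.63 and 6.23 on the WT arrays. The lowest Casp1-/- array thus lay above the highest WT array. The difference was 2.32 ± 0.44 (SE, adjusted p = 0.0202), and 12 of all genes had a larger rise, of which 6 passed the threshold. On the ASC-/- arrays Agt was 6.96, 7.54 and 7.97, within the range of the WT arrays, with a difference from WT of 0.30 (95% interval -0.69 to 1.28).

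Apln encodes apelin, a peptide of adipocytes and endothelial cells that acts through the receptor Aplnr. Its signal was 6.84, 6.85 and 7.30 on the Casp1-/- arrays, against 6.42, 6.29, 6.29 and 6.20 on the WT arrays. The groups did not overlap, and the WT arrays lay within 0.21 of each other. The difference of 0.70 ± 0.13 (SE, adjusted p = 0.0189) was smaller than that of Agt and rested on a smaller spread. The ASC-/- arrays, at 6.12, 6.40 and 6.15, included the lowest of all 10, and their difference from WT was -0.074 (95% interval -0.36 to 0.21).

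Both genes are shown with the 250 bases before their annotated start, beside Rbp4, whose difference was the largest of the genes that did not pass, and Lep, whose difference was small, to set genes that passed the test beside genes that did not. Sequences are from RefSeq (GRCm38.p6, 5′ to 3′ on the gene's strand), which held 8 of the 9 genes. Rarres2 had no entry. Capitals mark matches on either strand to 4 motifs chosen after the sequences had been seen: the TATA box TATAA, the C/EBP-type site TTNNGNAA, the nuclear receptor half-site AGGTCA and the hypoxia response core ACGTG.
Agt, chr8:124569707-124569956, minus strand: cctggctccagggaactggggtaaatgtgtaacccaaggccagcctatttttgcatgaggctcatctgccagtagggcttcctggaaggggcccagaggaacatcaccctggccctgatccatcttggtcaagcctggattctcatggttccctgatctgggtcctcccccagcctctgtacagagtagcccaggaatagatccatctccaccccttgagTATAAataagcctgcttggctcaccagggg
Apln, chrX:48034854-48035103, minus strand: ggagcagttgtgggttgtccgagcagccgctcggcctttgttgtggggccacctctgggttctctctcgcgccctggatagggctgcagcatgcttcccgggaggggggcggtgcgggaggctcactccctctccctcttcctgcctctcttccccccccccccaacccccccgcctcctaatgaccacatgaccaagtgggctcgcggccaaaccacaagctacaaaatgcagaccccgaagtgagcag
Rbp4, the downstream one of its 2 entries, chr19:38124812-38125061, minus strand: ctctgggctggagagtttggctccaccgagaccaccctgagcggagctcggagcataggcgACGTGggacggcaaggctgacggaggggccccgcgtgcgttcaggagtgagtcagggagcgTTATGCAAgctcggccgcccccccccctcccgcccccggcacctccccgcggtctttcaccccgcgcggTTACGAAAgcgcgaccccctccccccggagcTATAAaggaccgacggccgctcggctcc
Lep, chr6:29059971-29060220, plus strand: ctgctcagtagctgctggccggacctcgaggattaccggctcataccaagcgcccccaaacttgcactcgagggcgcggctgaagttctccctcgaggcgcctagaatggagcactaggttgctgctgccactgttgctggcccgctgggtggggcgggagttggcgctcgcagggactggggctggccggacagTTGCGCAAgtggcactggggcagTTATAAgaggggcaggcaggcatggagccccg

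The Agt window holds a TATA box at -30 to -26 from the start and none of the other motifs. The Lep window has overlapping matches to TATAA on both strands at -32 to -27 and the palindrome TTGCGCAA at -55 to -48. The Rbp4 window shown has a TATA box, C/EBP-type matches at -128 and at -59 and a hypoxia core at -189. The window of the other, upstream Rbp4 entry holds only a C/EBP-type match, at -9 to -2. The Apln window holds none of the 4 motifs. Among 32851 windows of this length in RefSeq, 22.8% hold TATAA, 36.8% TTNNGNAA, 14.02% AGGTCA and 16.6% ACGTG. Such matches are letters only, and no binding was measured.

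Rbp4 and Retn formed a second tier. RBP4 carries retinol in blood and is raised in insulin-resistant states. Its signal was 12.93, 13.01 and 13.10 on the Casp1-/- arrays, against 12.26, 12.29, 10.76 and 11.93 on the WT arrays. WT replicate 3 was far below the other WT arrays, and the groups did not overlap. The difference was 1.20 ± 0.34 (SE, adjusted p = 0.0563), which is the largest rise among the 188 genes of a mean signal from 12 to 13.

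Retn encodes resistin, in mice a hormone of adipocytes that impairs glucose tolerance. It read 13.23, 13.33 and 13.40 on the Casp1-/- arrays, against 12.93, 12.60, 10.97 and 12.23 on the WT arrays. All Casp1-/- arrays were above all WT arrays, and WT replicate 1 was the nearest to them. The difference was 1.14 ± 0.40 (SE, adjusted p = 0.106). On the ASC-/- arrays both genes lay within the WT range, at 11.56 to 12.12 for Rbp4 and 11.70 to 12.47 for Retn.

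Lep, Adipoq and Rarres2 had the smallest differences from WT in Casp1-/- fat. Within the high spike-in set, with WT replicate 1 as the only WT array, these differences were 0.17, 0.12 and 0.11. Lep was 12.87, 12.73 and 12.75 in Casp1-/- fat, against 12.61, 12.78, 12.02 and 12.49 in WT fat, and these groups overlapped. Its difference was 0.31 (95% interval -0.057 to 0.68, adjusted p = 0.252). In ASC-/- fat it was 12.55, 12.80 and 12.78, a difference from WT of 0.23 (95% interval -0.13 to 0.60).

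Adiponectin, encoded by Adipoq, is among the most abundant products of adipocytes. Its signal was 13.73, 13.72 and 13.72 on the Casp1-/- arrays, against 13.61, 13.66, 13.23 and 13.52 on the WT arrays. The groups did not overlap, although WT replicate 2 came close to the lowest Casp1-/- array. The difference was 0.22 ± 0.10 (SE, adjusted p = 0.206), and the ASC-/- arrays (13.46 to 13.56) lay within the WT range.

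Rarres2 encodes chemerin, which draws macrophages and dendritic cells through the receptor CMKLR1 and also acts on adipocytes. Its signal ranged from 12.38 to 12.59 in Casp1-/- fat, against 11.83 to 12.47 in WT fat. The groups overlapped, and the difference was 0.26 ± 0.16 (SE, adjusted p = 0.305). A second bright probe set of Rarres2 gave 0.28 (adjusted p = 0.265 over 28898 probe sets). The third read 4.94 in Casp1-/- fat and 4.62 in WT fat, near the highest background controls of the arrays (4.58 to 5.01) and above them on Casp1-/- replicates 2 and 3 and WT replicate 1. It differed by -0.56 in ASC-/- minus Casp1-/- (adjusted p = 0.0226), with 4.38 ± 0.089 in ASC-/- fat and 4.94 ± 0.17 in Casp1-/- fat (SD, n = 3 each), where the bright probe sets did not pass. The other measured genes have 1 probe set each.

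**Figure D2:**
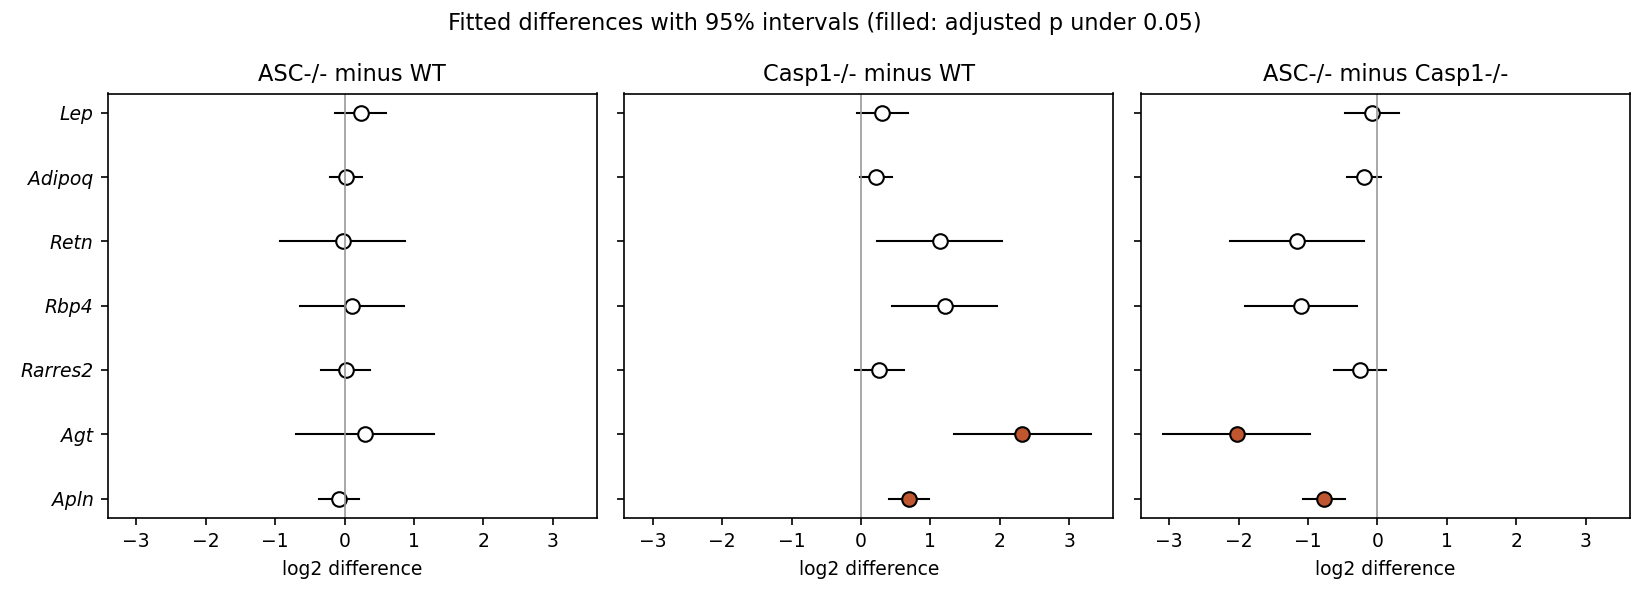
Fitted log2 differences (horizontal axis) of the 7 adipokine genes in the 3 comparisons, with 95% intervals; filled points have an adjusted p under 0.05. Agt and Apln are filled in both comparisons with Casp1-/-, and none is filled in ASC-/- minus WT.

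Read against the whole array, 2 of 7 adipokine genes passed the test in Casp1-/- minus WT, both higher. Of all genes 8.17% passed and 4.31% passed as higher. All 7 genes were above WT, with a median difference of 0.70 against 0.041 over all genes. For 5 of the 7 the arrays did not overlap, all higher in Casp1-/- fat, as was so for 15.1% of all genes. Of the 7 genes 0 passed in ASC-/- minus WT, against 0.0351% of all genes, and 0 of 7 did not overlap, against 3.19%. The median of the 7 was 0.021, against 0.0050 over all genes.

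ASC-/- fat was also set directly against Casp1-/- fat, a comparison that uses the same Casp1-/- arrays, and Agt and Apln again passed. Agt was 7.49 ± 0.51 in ASC-/- fat and 9.52 ± 0.17 in Casp1-/- fat (SD, n = 3 each), a difference of -2.03 ± 0.47 (SE, adjusted p = 0.0348). Apln was 6.22 ± 0.15 in ASC-/- fat and 6.995 ± 0.27 in Casp1-/- fat, a difference of -0.77 ± 0.14 (SE, adjusted p = 0.0160). Rbp4 (-1.09, adjusted p = 0.0936) and Retn (-1.16, adjusted p = 0.126) missed the threshold, and Lep differed by -0.075 (95% interval -0.47 to 0.32). The 2 genes that passed were both lower in ASC-/- fat, where 7.39% of all genes passed and 3.54% passed as lower. For 5 of the 7 genes all ASC-/- arrays lay below all Casp1-/- arrays, as for 23.1% of all genes.

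The calls for Agt and Apln depended on which arrays and terms were in the fit. With the spike-in set as a block the differences from WT were 1.77 for Agt (adjusted p = 0.323) and 0.58 for Apln (adjusted p = 0.275), 0.75 for Rbp4 and 0.39 for Retn, and none passed. Within the high set, where WT replicate 1 is the only WT array and is assumed to vary like the Casp1-/- arrays, Agt passed (1.77, adjusted p = 0.0234) and Apln did not (adjusted p = 0.321). Agt missed the threshold without any single Casp1-/- array (adjusted p = 0.0623 to 0.0853, differences 2.27 to 2.43), and Apln missed it without Casp1-/- replicate 2 (adjusted p = 0.0607) or WT replicate 4 (adjusted p = 0.0551). Without WT replicate 1 both Rbp4 (1.36, adjusted p = 0.0325) and Retn (1.39, adjusted p = 0.0395) passed, and Rbp4 also passed without WT replicate 2 (1.36, adjusted p = 0.0492) or without WT replicate 3 (0.85, adjusted p = 0.0243). The count of genes that passed in ASC-/- minus Casp1-/- was 0 with the spike-in block, without ASC-/- replicate 1 or without Casp1-/- replicate 2, 1 without any single other knockout array, and 4 without WT replicate 3.

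Of the 7 genes 5 shared their lowest array. The highest array was Casp1-/- replicate 1 for 3 genes, replicate 3 for 3 and replicate 2 for 1. WT replicate 3 was the lowest of all 10 arrays for Lep, Adipoq, Retn, Rbp4 and Rarres2, and ASC-/- replicate 1 was the lowest ASC-/- array for all 7 genes. For Apln the lowest of all was ASC-/- replicate 1 and for Agt WT replicate 4. The highest minus the lowest array was 0.17 for Retn, 0.32 for Agt and 0.17 for Rbp4 within Casp1-/-, against 1.96, 1.94 and 1.53 within WT. For Adipoq it was 0.016 within Casp1-/- and 0.43 within WT, and Apln alone of the 7 genes had the wider range in Casp1-/-, 0.47 against 0.21 within WT.

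**Figure D3:**
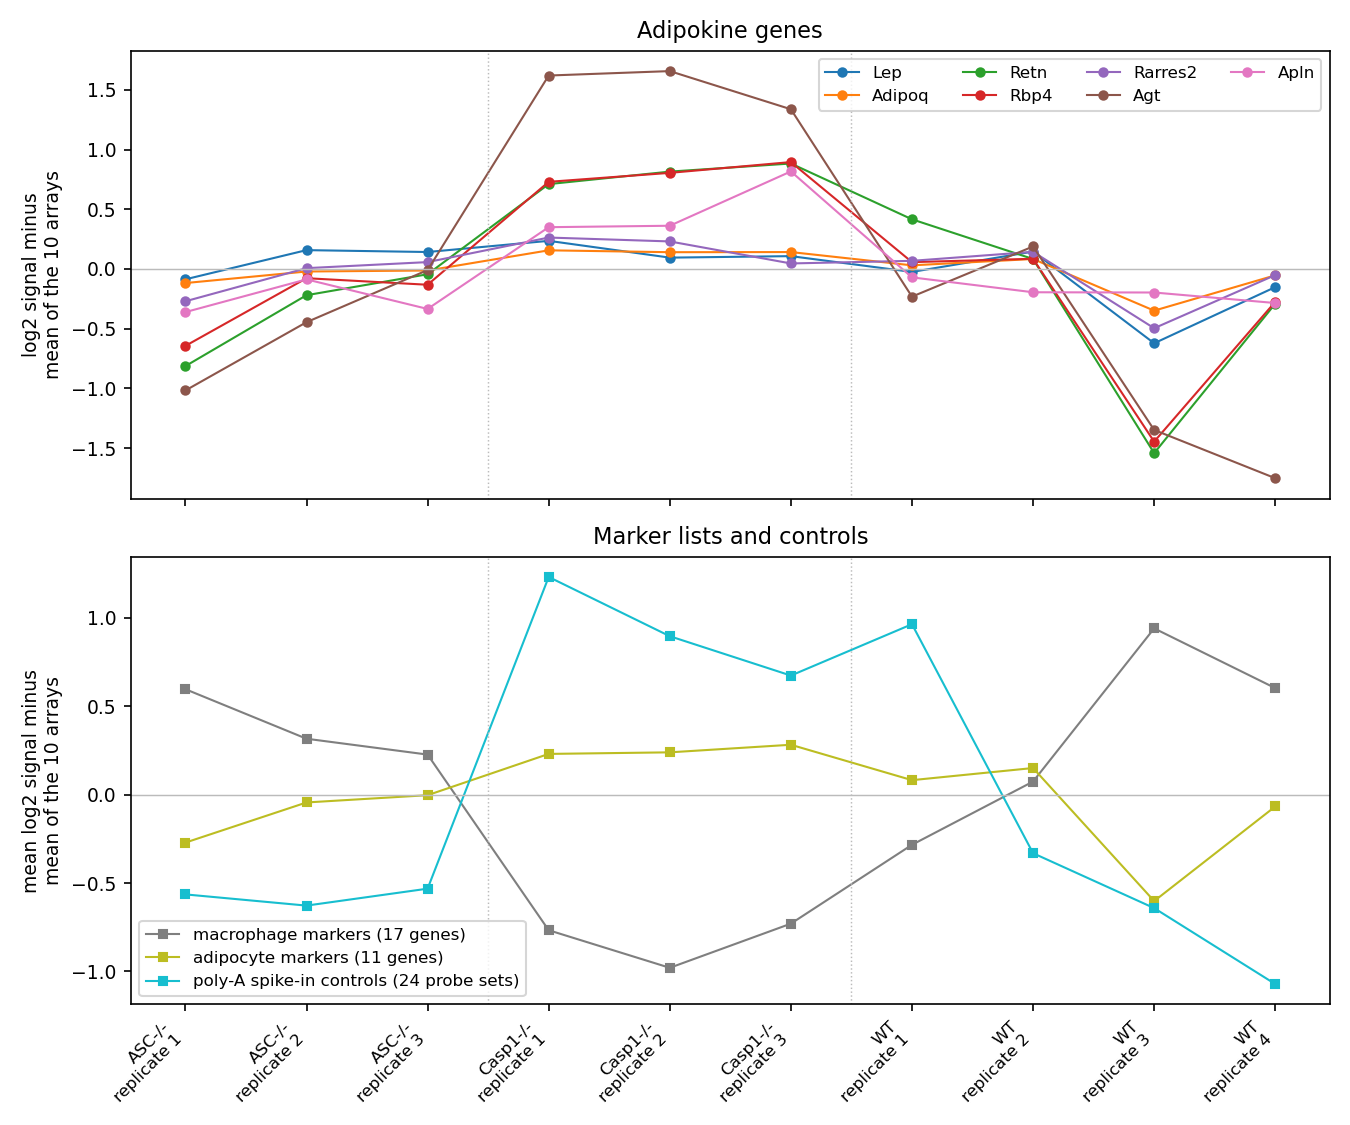
Top, log2 signal of each adipokine gene minus its mean over the 10 arrays; bottom, the same for the means of macrophage markers, adipocyte markers and spike-in controls, with arrays along the horizontal axis and lines only linking points of 1 series. Retn, Rbp4 and Agt are high on the Casp1-/- arrays and low on WT replicate 3, where the macrophage markers are highest.

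Markers of macrophages, adipocytes, vessels and other cell types are set beside these values. The mean of 17 macrophage markers was 10.19 to 10.56 in ASC-/-, 8.98 to 9.23 in Casp1-/- and 9.68 to 10.90 in WT fat. It was highest on WT replicate 3, and WT replicate 1 had the lowest WT mean. In Casp1-/- minus WT 10 of the 17 fell by the test, as did 660 of the 17097 genes. By sign 16 were lower and 1, Cd163, was higher (0.59). The mean of 11 adipocyte markers (such as Fabp4 and Pparg) was 11.06 to 11.33 in ASC-/-, 11.57 to 11.62 in Casp1-/- and 10.73 to 11.49 in WT fat, lowest on WT replicate 3. In Casp1-/- minus WT, 1 of these 11 rose by the test, where 4.31% of all genes did. By sign 8 were higher and 3 lower, with a median difference of 0.21 and a range of -0.17 to 1.16. An unadjusted p under 0.05 was found for 5 of the 11 by limma, and for 4723 of the 17097 genes. The 3 lower ones were Pnpla2, at a level that background controls also reach, and the bright Fabp4 and Cd36. The 11 adipocyte markers span the scale, from Pnpla2 at 4.58 to Fabp4 at 13.93 in WT fat. The differences of the dimmest and the brightest of them are therefore not directly comparable with that of Agt. The mean of 8 endothelial markers was 7.91 to 8.36 in ASC-/-, 8.05 to 8.80 in Casp1-/- and 7.68 to 8.14 in WT fat. In Casp1-/- minus WT 0 of 8 passed the threshold by limma and 5 of 8 had an unadjusted p under 0.05, as had 4723 of the 17097 genes. For the remaining marker lists the median differences were -2.51 (crown macrophage), 0.75 (mesothelial), -0.39 (brown adipocyte) and -0.29 (progenitor and fibroblast). They were 0.056 (neutrophil), -0.019 (epididymis) and -0.011 (T cell), against 0.041 over all genes. Actin's 3′ signal exceeded its 5′ signal, a gap that widens in shortened RNA, by 0.54 to 0.67 in ASC-/-, 0.82 to 0.98 in Casp1-/- and 0.46 to 1.05 in WT fat. The actin gap was also put in the fit as a term. In Casp1-/- minus WT Agt (1.92, adjusted p = 0.0101) and Apln (0.68, adjusted p = 0.027) then passed by limma. Rbp4 (0.99, adjusted p = 0.0885) and Retn (0.85, adjusted p = 0.166) did not. No adipokine gene passed in ASC-/- minus Casp1-/- with this term. The part of the cell types in the adipokine differences was not tested.

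Several of these probe sets are close to the top of the scale. Retn came within 0.52 and Rbp4 within 0.82 of the brightest probe set of an array, Lep within 1.11 and Rarres2 within 1.39. Only 5 probe sets were brighter on average than that of Adipoq, which lay 0.20 to 0.59 below the brightest probe set of its array. Lep had 167 brighter probe sets, Retn 209, Rarres2 278 and Rbp4 333, while Agt and Apln were far from the top, with at least 4.36 and 6.61 to spare. Among genes above 6 the differences between groups were smaller where the signal was brighter. The median absolute difference of Casp1-/- minus WT was 0.24 for the 5503 genes with a mean signal from 6 to 9, 0.17 for the 188 genes from 12 to 13 and 0.15 for the 48 genes above 13, while it was 0.12 for the 8723 genes below 6. The largest rise was 2.80 from 6 to 9, 1.20 from 12 to 13 and 0.45 above 13. The files hold no scanner flags, so whether a probe set was saturated cannot be told, and how far that bears on the differences of these 5 bright genes was not tested.

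**Figure D4:**
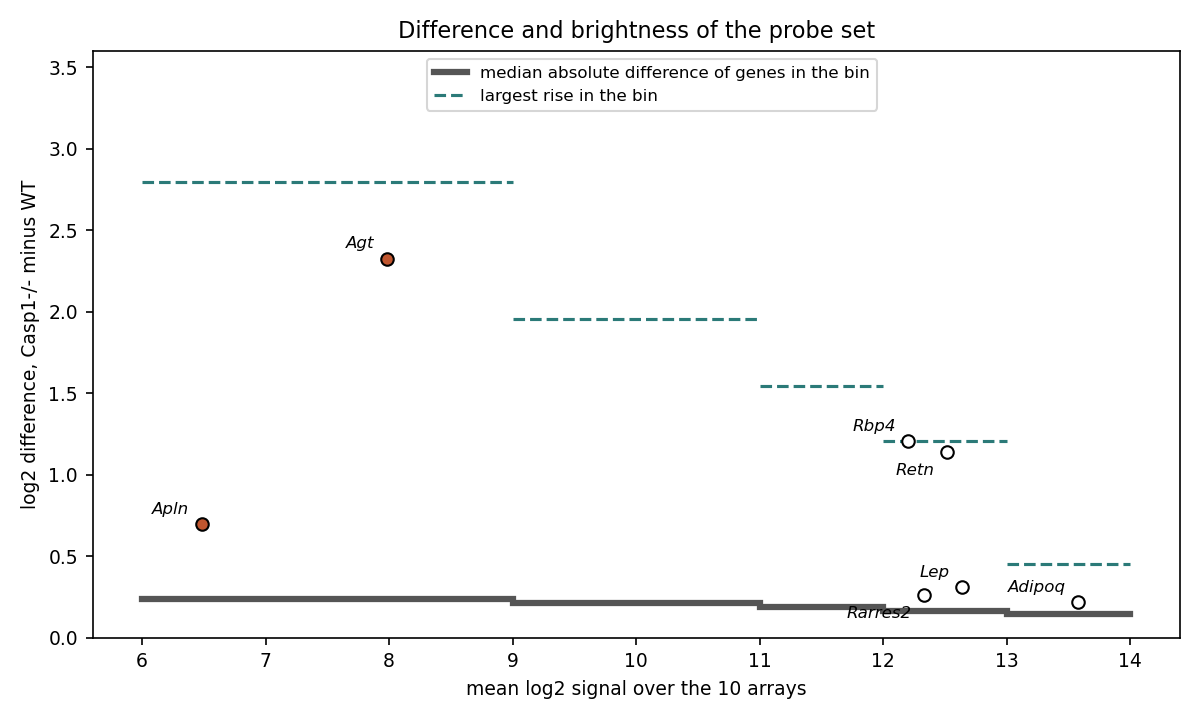
Log2 difference of Casp1-/- minus WT (vertical axis) against the mean log2 signal over the 10 arrays (horizontal axis, genes below 6 left out) for the 7 adipokine genes, filled where adjusted p is under 0.05; solid lines are the median absolute difference and dashed lines the largest rise of all genes in each bin of signal. Rbp4 lies on the dashed line of its bin at 1.20, and Adipoq lies in the last bin, where the largest rise is 0.45.

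Of 14 genes of adipokine receptors and binding proteins 2 rose and 1 fell in Casp1-/- minus WT (3 of 14, where 8.17% of all genes passed; median difference 0.11, against 0.041 over all genes). Cmklr1, the signalling receptor of chemerin, was 9.37, 9.59 and 9.88 on the Casp1-/- arrays, against 8.21, 8.59, 8.51 and 8.43 on the WT arrays. It rose by 1.18 ± 0.14 (SE, adjusted p = 0.00617) without overlap. It passed with the spike-in block (1.40, adjusted p = 0.0214), missed the threshold within the high set (1.40, adjusted p = 0.0688), and its second brightest probe set gave 0.59 (adjusted p = 0.0485). Gpr1, a second chemerin receptor, was 5.90 ± 0.20 in Casp1-/- fat and 5.25 ± 0.11 in WT fat (SD, n = 3 and 4, adjusted p = 0.021), and with the block it did not pass (0.74, adjusted p = 0.151). Ccrl2, a further receptor that binds chemerin, was 6.91 ± 0.14 in Casp1-/- fat and 6.79 ± 0.45 in WT fat and did not pass (adjusted p = 0.757). Cap1, an actin-binding protein reported to bind resistin on human monocytes, fell 1.99-fold (adjusted p = 0.0425), and with the block its difference was -0.32 (adjusted p = 0.697).

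Receptors that did not pass are given for the ligands they bind, and were chosen after their values were seen. The leptin receptor Lepr was close to the background controls in all groups, above the highest of them on WT replicate 1 alone, with means of 4.02, 4.06 and 4.10 in ASC-/-, Casp1-/- and WT fat. The adiponectin receptors Adipor1 (-0.068) and Adipor2 (0.41, adjusted p = 0.171) and the apelin receptor Aplnr (0.46, adjusted p = 0.0976) did not pass in Casp1-/- minus WT. Of the angiotensin receptors Agtr1a was 6.73 ± 0.49 in Casp1-/- fat and 6.64 ± 0.38 in WT fat, and Agtr1b and Agtr2 were at background. Of the 14 genes 0 passed in ASC-/- minus WT by limma, where 0.0351% of all genes did (median difference 0.066, against 0.0050 over all genes). An unadjusted p under 0.05 was found for 0 of the 14 and for 342 of the 17097 genes.

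Of 8 measured genes of the renin-angiotensin system 1 rose and 1 fell in Casp1-/- minus WT, where 8.17% of all genes passed (median difference 0.027). Enpep, which cleaves angiotensin II, was 10.97 ± 0.10 in Casp1-/- fat and 10.16 ± 0.37 in WT fat (SD, n = 3 and 4), a rise of 0.80 (adjusted p = 0.0378). Anpep, an aminopeptidase also found on myeloid cells, fell to 4.35 ± 0.39 in Casp1-/- fat, a level that background controls also reach, against 7.17 ± 1.44 in WT fat (adjusted p = 0.035). WT replicate 1, at 5.18, was the WT array nearest to the Casp1-/- arrays. With the spike-in block neither passed, Enpep at 0.57 (adjusted p = 0.492) and Anpep at -0.83 (adjusted p = 0.598). Ace was 5.32 ± 0.24 in Casp1-/- fat and 5.80 ± 0.36 in WT fat and did not pass.

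The complement receptors C3ar1 and C5ar1, which macrophages carry, fell 5.03-fold (adjusted p = 0.0138) and 4.99-fold (adjusted p = 0.0124) in Casp1-/- minus WT. They belong to a list of 6 measured complement genes, of which 2 fell and 1 rose, where 8.17% of all genes passed (median difference -0.27). The one that rose was Masp1, at 4.57 in Casp1-/- fat and 3.93 in WT fat, means that background controls also reach. With the spike-in block none passed, C3ar1 at -1.39 (adjusted p = 0.237), C5ar1 at -1.32 (adjusted p = 0.174) and Masp1 at 0.63 (adjusted p = 0.293).

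Among 13 genes of retinol handling 1 passed in Casp1-/- minus WT, a share near the 8.17% of all genes: Rdh10 (0.41, adjusted p = 0.0375), which makes retinaldehyde from retinol. Of 10 genes of NAD synthesis and use and of 8 genes of adiponectin assembly and secretion 0 passed by limma (2 in each had an unadjusted p under 0.05, as had 4723 of the 17097 genes), with median differences of -0.059 and 0.0046. Of 31 other secreted factors of fat 1 rose and 3 fell, where 8.17% of all genes passed (median difference 0.088). Vegfa, the growth factor of vessels, rose 2.33-fold (adjusted p = 0.0148), and Pltp, a phospholipid carrier, fell 3.06-fold (adjusted p = 0.0118). Cxcl14, a chemokine, fell 3.93-fold (adjusted p = 0.0249) and Metrnl, a secreted protein of fat and macrophages, 2.71-fold (adjusted p = 0.0348). With the spike-in block none of these 5 genes passed: Vegfa was at 1.04 (adjusted p = 0.223), Pltp at -0.94 (adjusted p = 0.165), Cxcl14 at -1.35 (adjusted p = 0.408), Metrnl at -0.61 (adjusted p = 0.589) and Rdh10 at 0.30 (adjusted p = 0.479).

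Of 15 measured transcription factors known to act on adipokine genes, 3 rose and 1 fell in Casp1-/- minus WT (median difference 0.11). Of all genes 8.17% passed. Pparg, the master regulator of adipocytes and also one of the 11 adipocyte markers, was 11.14, 11.20 and 11.48 on the Casp1-/- arrays, against 10.32, 10.50, 10.06 and 10.70 on the WT arrays, a rise of 0.88 (adjusted p = 0.0234) without overlap. Its partner Rxra rose by 0.81 (adjusted p = 0.0242) and Klf15, which drives adipocyte and fasting genes, by 1.47 (adjusted p = 0.046). Atf3, a stress factor reported to repress adiponectin, fell 6.95-fold (adjusted p = 0.0172). Cebpa was 10.79 ± 0.076 in Casp1-/- fat and 10.40 ± 0.25 in WT fat and did not pass (Cebpa and Ace were named after their values were seen). With the spike-in block the differences were 0.95, 0.63, 1.02 and -1.81 for Pparg, Rxra, Klf15 and Atf3, and none passed.

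**Figure D5:**
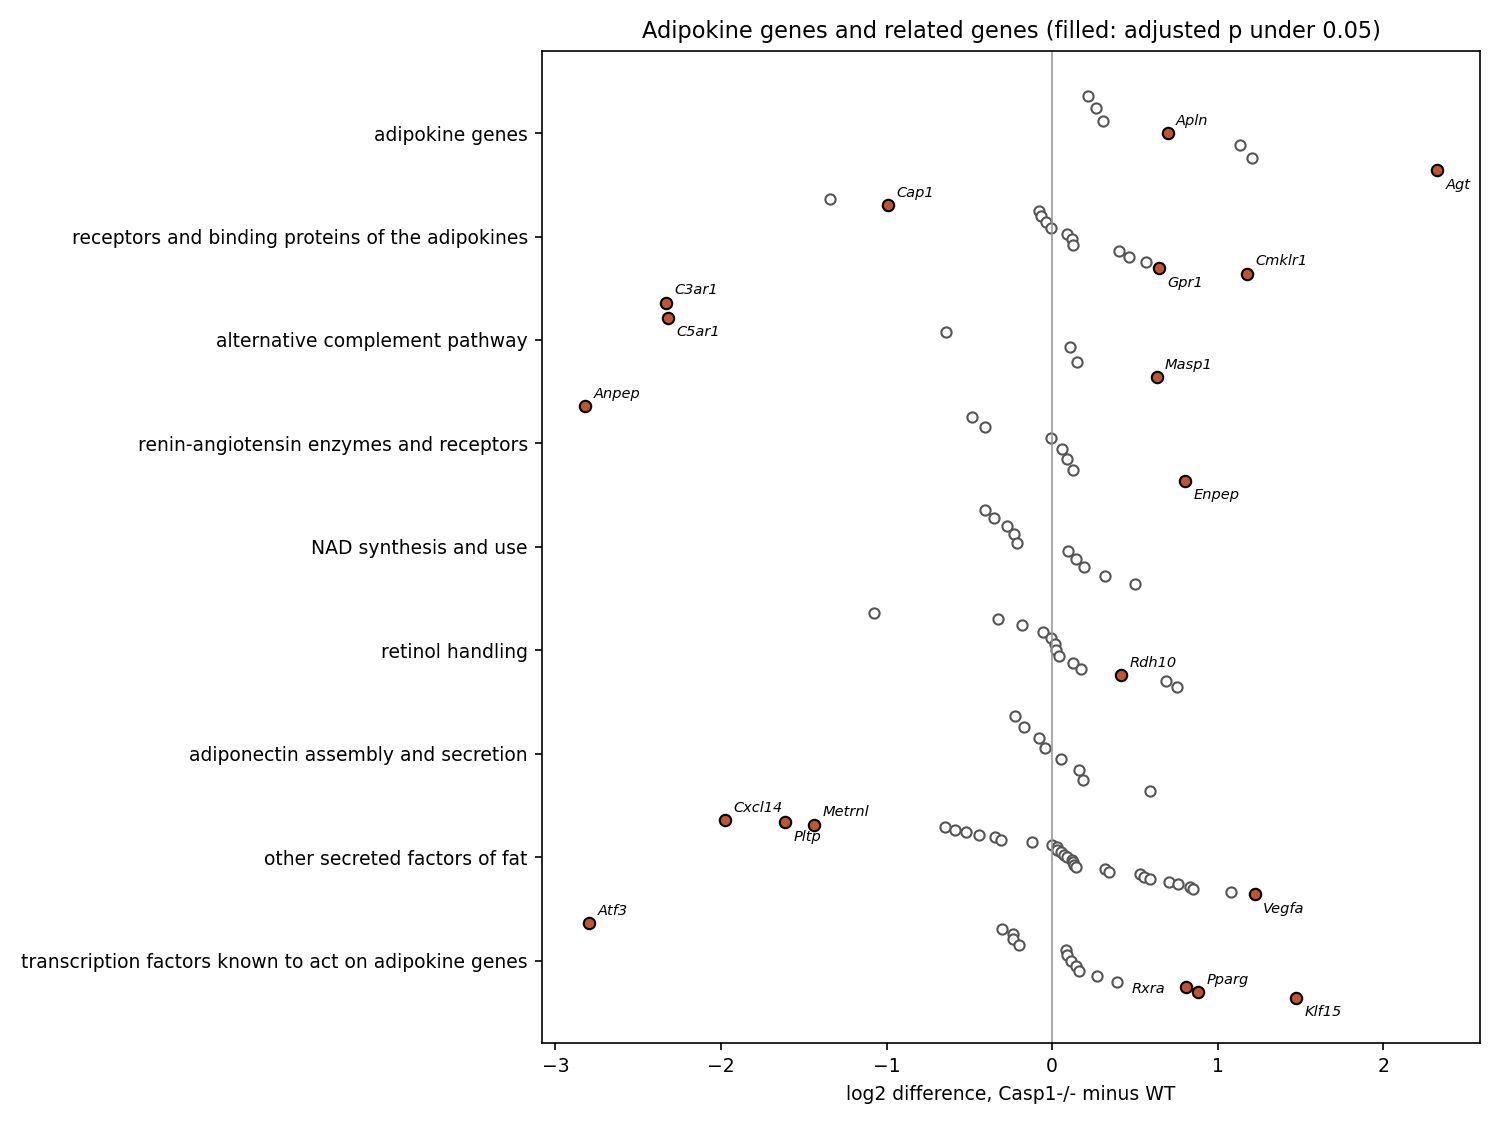
Log2 difference of Casp1-/- minus WT (horizontal axis) for each measured gene of the adipokines and of 8 related lists (rows), filled and named where adjusted p is under 0.05. Adipokine genes all lie right of 0, and the related lists spread to both sides.

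In ASC-/- minus WT 0 of the 102 genes of the 8 related lists passed by limma, against 0.0351% of all genes. An unadjusted p under 0.05 was found for 5 of them and for 342 of the 17097 genes. In ASC-/- minus Casp1-/- 17 of the 102 passed, where 7.39% of all genes did, and 10 of them were higher and 7 lower in ASC-/- fat. The higher ones included Anpep (3.37, adjusted p = 0.0259), Atf3 (3.11, adjusted p = 0.0148), C5ar1 (2.596, adjusted p = 0.0115) and C3ar1 (2.52, adjusted p = 0.0133). Cxcl14 (2.33), Pltp (1.80), Metrnl (1.59) and Cap1 (1.13) were higher too, with adjusted p from 0.0115 to 0.0362. Stra6l, a receptor of retinol-binding protein, was 5.28 ± 0.19 in ASC-/- fat and 3.58 ± 0.52 in Casp1-/- fat (SD, n = 3 each, adjusted p = 0.0392), the second mean within the background range. The C/EBP family member Cebpb was 11.10 ± 0.17 in ASC-/- fat and 10.58 ± 0.037 in Casp1-/- fat (adjusted p = 0.0173). Lower in ASC-/- fat were Cmklr1 (-1.10, adjusted p = 0.0104), Vegfa (-1.15, adjusted p = 0.0217), Pparg (-0.82, adjusted p = 0.0351), Rxra (-0.85, adjusted p = 0.0262) and Rdh10 (-0.54, adjusted p = 0.0223), along with Masp1 (-0.68, adjusted p = 0.028) and Nmnat2 (-0.38, adjusted p = 0.0435), both with means in the range of the background controls. With the spike-in block 0 of these 17 passed by limma: Cmklr1 came nearest (-1.40, adjusted p = 0.067), Stra6l was at 0.49 (adjusted p = 0.885), Anpep at 0.71 (adjusted p = 0.837) and Cebpb at 0.48 (adjusted p = 0.424).

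The genes most like each adipokine were sought among 8367 genes with a mean signal of at least 6, by Pearson's r over the 10 arrays. These values describe arrays that share genotypes and the low WT replicate 3, and they carry no test. Agt was closest to Sufu (r = 0.99, 0.99 after the group means were removed) and Ccdc6 (0.99 and 0.95), although these genes moved less, by 0.81 and 0.46 in Casp1-/- minus WT. Apln was closest to Yipf1 (0.98 and 0.89) and Tfb2m (0.97 and 0.84). Rbp4 ran with Aoc3 (0.997 and 0.998) and Ginm1 (0.99 and 0.99), and Retn with Plin4 (0.99 and 0.99) and Tlcd1 (0.99 and 0.99). Adipoq was closest to Ppp2r5a and Chchd6, Lep to Cd59a and Cmc1, and Rarres2 to Parp3 and Bscl2, with r from 0.97 to 0.99.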

How the data were processed

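Total RNA of epididymal fat from 10 mice was read on Affymetrix HT_MG-430 PM arrays. The authors deposited log2 values made with RMA, per the submitters' processing notes (version not given in the sources used here); their background correction and scanner flags were not analysed here, and values near the top of the scale can be compressed. Of 45141 probe sets, 28898 had exactly 1 gene in the platform annotation, 551 had several and 15588 none, and 104 were controls. The brightest probe set stood for each of 17097 genes. Differences were fitted with limma 3.58.1 in R 4.3.3 (1 mean per genotype over all arrays, empirical Bayes, Benjamini-Hochberg over all genes, threshold 0.05, two-sided). The number of arrays limits the precision. The members and lists were chosen with earlier results of these data known. Text names every adipokine gene, up to 4 called genes with the smallest p per list and comparison, and the 2 genes most correlated with each adipokine. Alternatives changed the normalization, the probe set, the filter, the empirical Bayes step, array weights, the groups in the fit, replicate, spike-in and actin terms, and left out each array. The model was tested on simulated data.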

Additional observations from a re-analysis of the deposited data

Results flagged for a closer look

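Nmnat2, an enzyme of NAD synthesis, was at 3.89 on WT replicate 1, apart from the other WT arrays: its gap to the nearest of them was 0.881 of the range of the group, above Dixon's critical value for 4 samples. Background controls reach the same level. WT replicate 1 is also the only WT array of the high spike-in set, and the other arrays of that set, those of Casp1-/-, read 3.79 to 4.01. Whether the spike-in division bears on this value was not tested. Among 37 groups tested, 1 was set apart in this way, where chance sets apart about 1 in 20.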

How the results depend on the processing

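The differences of Casp1-/- minus WT kept their direction for all 7 genes under every alternative run. The count of adipokine genes past the threshold, 2 in that comparison, was 4 with array weights, 0 with the replicate block, 0 with the spike-in block, 1 on arrays of high spike-in signal alone and 0 to 4 when 1 array was left out. In the comparison of ASC-/- with Casp1-/-, also 2, it was 4 with array weights, 4 with only those groups in the fit, 0 with the replicate block, the spike-in block or the actin term, and 0 to 4 when 1 array was left out. With the replicate block Agt was at 2.00 (adjusted p = 0.108) and Apln at 0.66 (adjusted p = 0.122) in Casp1-/- minus WT. The labels state no pairing by replicate number. Deviations of arrays with 1 number correlated at -0.26 to 0.19, against -0.38 to 0.39 for different numbers. Within a group of 3 or 4 arrays such deviations are tied to each other, so these values cannot exclude a pairing. Over all genes, 1397 passed in Casp1-/- minus WT, but 2998 with array weights, 469 with 2 groups in the fit, 9 with the replicate block, 120 with the spike-in block, 226 on high spike-in arrays and 64 to 3018 when 1 array was left out. For ASC-/- minus Casp1-/- 1264 passed, but 3428, 3248, 19 and 63 under the first 4 of these, 231 with the actin term and 47 to 2615 when 1 array was left out. For ASC-/- minus WT 6 passed, 3 with 2 groups in the fit or the replicate block, and 3 to 6 when 1 array was left out. Small differences changed sign. Rarres2 in ASC-/- minus WT was -5.7e-04 after quantile normalization, -0.014 after centring and -0.067 as a mean of probe sets, Adipoq was -0.0078 after centring, and Apln was 0.0079 with array weights. Retn was 0.045 with array weights, 0.22 with the spike-in block or on low spike-in arrays alone, and 0.26 with the actin term, and Agt was -0.027 with the replicate block. When 1 array was left out the ranges were -0.43 to 0.22 for Retn, -0.12 to 0.12 for Rarres2, -0.071 to 0.073 for Adipoq, -0.24 to 0.29 for Rbp4 and -0.027 to 0.62 for Agt. Lep in ASC-/- minus Casp1-/- was 0.11 with the spike-in block, 0.14 with the actin term and -0.12 to 0.0038 when 1 array was left out. The cause was not tested. ASC-/- minus Casp1-/- has no value within a spike-in set, since no set holds both.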
